A study of Mus musculus with 24 samples.

Results

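The difference between genotypes in the response to homocysteate (HCA) was measured on 16 of the 24 arrays of the study, namely all arrays of BeadChips 2 and 3. These are the chips on which treated and untreated samples of both genotypes lie side by side. The samples were RNA from mouse embryonic cortical neurons, wild type or Atf4 knockout, hybridised to Illumina Mouse Ref-8 BeadChips with 1 sample per array. The 4 groups were untreated wild type (replicates 5 to 8), wild type with HCA (replicates 1 to 4), untreated knockout (replicates 5 to 8) and knockout with HCA (replicates 1 to 4), with 4 arrays each and 2 arrays of each group per chip. HCA is a homolog of glutamate that was used here as an oxidative stressor. The sources used here give neither its dose and exposure time nor the mouse strain, the knockout allele and the number of embryos per sample. Nothing in the labels tells whether a replicate is its own culture or animal. The p-values therefore measure only the spread between these samples, which may be technical in part. The wild-type samples did not all share a source. Y-linked Eif2s3y was detected on some arrays of each wild-type group and not on others.

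ATF4 is the transcription factor at the end of the integrated stress response, in which kinases that sense amino acid shortage, heme shortage, viral RNA or misfolded protein phosphorylate the translation factor eIF2. Most translation then slows while the Atf4 mRNA is translated more, and ATF4 switches on genes for amino acid uptake and synthesis, for the charging of tRNAs and for the control of translation and survival. HCA competes with cystine at its transporter, which starves neurons of the cysteine needed for glutathione.

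Arrays had a mean raw signal of 296 to 669 and detected 36.6% to 42.7% of their probes, and 7967 genes detected on at least 4 of the 16 arrays were tested. Precision is limited by the 4 arrays per group. Levels are log2 intensities after background correction and normalisation. The response of a genotype is its level with HCA minus its untreated level, and the quantity tested was the knockout response minus the wild-type response, with a term for chip, in limma. A gene was called where this difference in response had a Benjamini-Hochberg adjusted p under 0.05. The response within each genotype is given as an estimate with its standard error (SE) and was not tested by itself. The neuronal label was checked against markers. Of 23 pan-neuronal and synaptic genes, 18 were tested and 17 of these were detected on all 16 arrays, among them the neuronal tubulin Tubb3, the growth-associated Stmn2 and the dendritic Map2, whereas the Snap25 probe was detected on 0 arrays. The astrocyte gene Gfap was detected on 0 arrays too, and the microglial genes Itgam and Ptprc on 0, Aif1 on 1 and Trem2 on 2. Other markers of these cells were detected, since 6 of 11 astrocyte genes were tested, 5 of them on all arrays, and 8 of 16 microglia and macrophage genes, 2 of them on all arrays.

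Atf4 itself checked the labels. Untreated wild-type arrays read 9.52, 9.35, 9.46 and 9.41 for Atf4, and wild-type arrays with HCA read 9.74, 10.05, 10.14 and 10.21. Its probe was detected on 0 of the 8 knockout arrays, where it lay between 4.58 and 5.14. The wild-type response was 0.60 ± 0.11 (SE, n = 4 per group) and the difference in response -0.84 ± 0.15 (adjusted p = 0.0291, limma). All 4 wild-type arrays with HCA lay above all 4 untreated ones, while the knockout arrays were at background with and without HCA, so a knockout response of Atf4 could not be measured.

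Of the 7967 genes tested, 25 (0.314%) differed between genotypes in their HCA response. In 24 of them (0.301%) the knockout response was the lower, and in 1 gene (0.0126%), Hes5, it was the higher. In each of the 24 genes all 4 wild-type arrays with HCA lay above all 4 untreated wild-type arrays, as in 263 of all genes tested (3.3%), a separation that is part of the contrast by which the 24 were called. Their wild-type responses ran from 0.45 to 2.12 with a median of 0.84. Their knockout responses ran from -0.41 to 0.05 with a median of -0.14, 22 of them below 0 and 19 within 2 SE of 0. Among these genes, Atf4, Nupr1 and Slc1a5 were not detected on any knockout array, so their knockout responses are values at background. Atf4 is the deleted gene, so its lower knockout response was fixed once its wild-type level rose. Slc1a5 met the detection filter only through the treated wild-type arrays. The knockout response is also part of the contrast by which the 24 were called, so nothing further is read from these counts. The differences in response ran from -2.53 to -0.54, and 24 of the 25 genes differed by 1.5-fold or more and 12 by 2-fold or more. All 25 had the same sign on both chips, whose arrays entered the same contrast, so this is not independent of the calls. Fitted within a chip, where each group holds 2 arrays, 0 genes passed on chip 2 (329 had an unadjusted p under 0.05) and 2 on chip 3, namely Chac1 and Mthfd2.

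**Figure D1:**
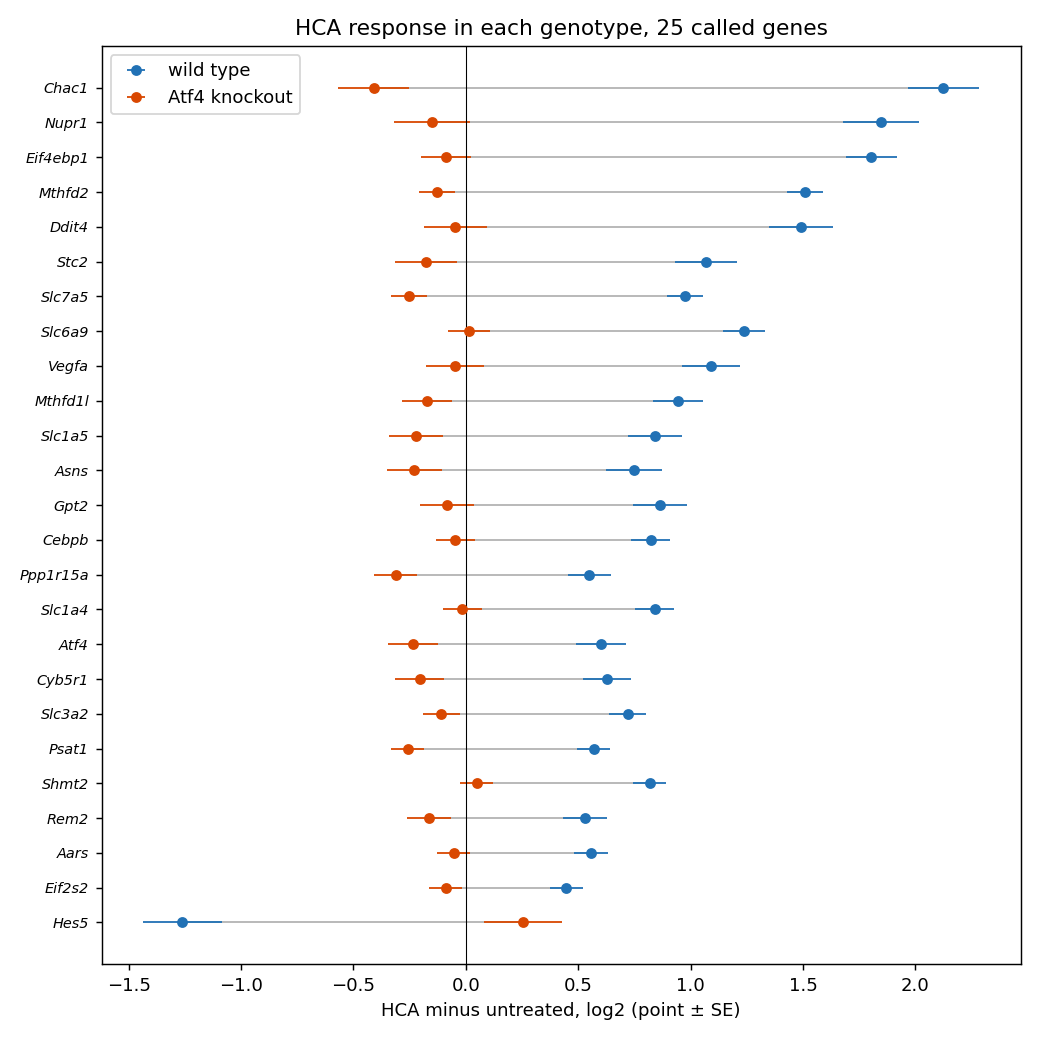
HCA response of each of the 25 called genes, as log2 level with HCA minus untreated on the horizontal axis, in wild type (blue) and Atf4 knockout (orange), with bars of 1 SE (n = 4 per group). For 24 genes the wild-type point lies at 0.45 or above and the knockout point between -0.41 and 0.05, and for Hes5 the wild-type point lies at -1.26 and the knockout point at 0.25.

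Each chip held 2 sets of 4 neighbouring positions with 1 array of every group, which gives 4 separate responses per genotype. In all 25 called genes the 4 wild-type responses did not overlap the 4 knockout responses. These responses are made from the arrays that entered the contrast by which the genes were called. Their separation is therefore not independent of the calls. Over all genes tested such a separation was found in 254 with the knockout lower (3.19%) and in 204 with it higher (2.56%). The median difference in response over all genes was 0.01, and 582 genes (7.31%) had an unadjusted p under 0.05, 303 lower and 279 higher in knockout, which are not calls. The calls thus lay almost all in 1 direction, while the genes with an unadjusted p under 0.05 lay in both.

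**Figure D2:**
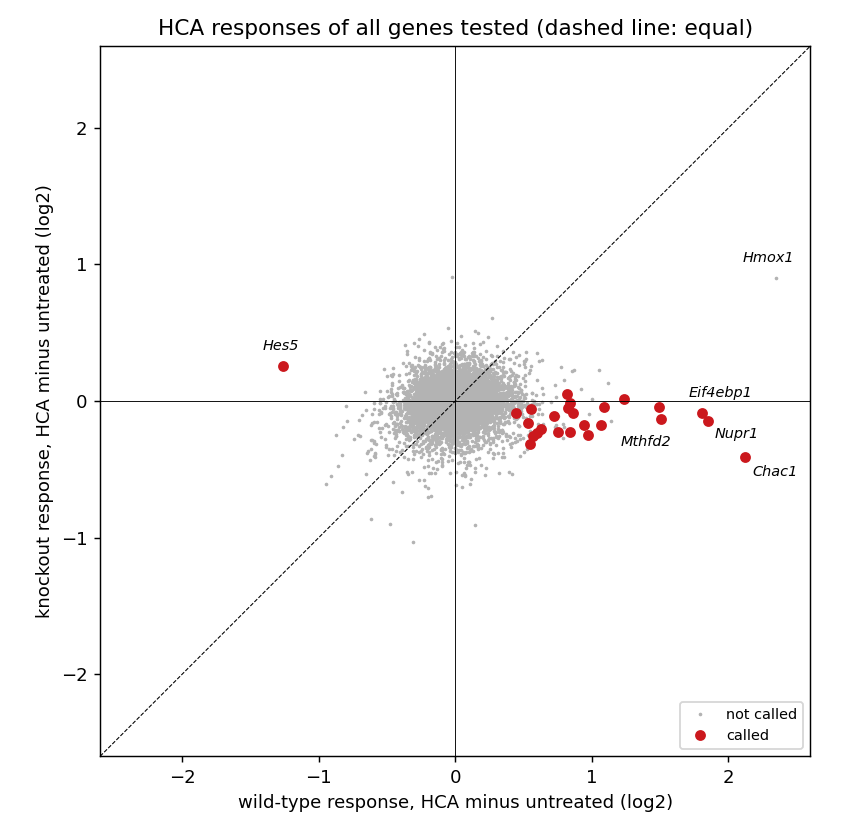
Wild-type response (horizontal axis) against knockout response (vertical axis) to HCA, in log2 units, for all 7967 genes tested, with called genes in red and a dashed line where both responses are equal. The 24 genes called lower lie to the right of the line near a knockout response of 0, Hes5 lies on the left, and Hmox1, which was not called, has responses of 2.35 and 0.90.

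Regulators of the stress response held the largest differences. Chac1, an enzyme that breaks down glutathione, read 9.09, 9.46, 9.47 and 9.15 on the untreated wild-type arrays and 11.30, 11.34, 11.54 and 11.48 on those with HCA. On the knockout arrays it read 7.15, 7.10, 6.52 and 6.87 untreated and 6.99, 6.44, 6.24 and 6.33 with HCA. Wild type was thus 4.36-fold higher with HCA, with no overlap between its arrays, whereas the knockout groups overlapped and all 8 knockout arrays lay below every wild-type array. The Chac1 response was 2.12 ± 0.16 in wild type and -0.41 ± 0.16 in knockout, and the difference was -2.53 ± 0.22 (adjusted p = 3.52e-05, limma), -2.46 on chip 2 and -2.61 on chip 3. It was the most negative difference of all genes tested.

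Eif4ebp1 encodes 4E-BP1, which binds the cap-binding protein eIF4E and holds back cap-dependent translation. Its level was 9.36, 9.28, 9.50 and 9.55 in untreated wild type and 11.19, 11.32, 11.20 and 11.21 with HCA. In knockout it was 7.27, 7.54, 7.58 and 7.06 untreated and 7.20, 7.38, 7.11 and 7.41 with HCA. The treated wild-type arrays stood apart from all others, and the knockout groups lay across each other. The response of Eif4ebp1 was 3.49-fold in wild type, and the difference between genotypes was -1.89 ± 0.16 (adjusted p = 2.92e-05, limma). Ppp1r15a encodes GADD34, which brings a phosphatase to eIF2 and restores translation. It moved from 7.24, 7.13, 7.46 and 7.60 to 7.97, 7.80, 7.70 and 8.15 with HCA in wild type, and in knockout from 7.55, 7.51, 7.81 and 7.68 to 7.17, 7.19, 7.49 and 7.45. Here the untreated genotypes overlapped and both groups of knockout arrays were apart, the HCA arrays being the lower. The difference in response of Ppp1r15a was -0.86 ± 0.13 (adjusted p = 0.00785, limma).

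Among the transcriptional regulators, Nupr1, a small stress-induced chromatin protein, lay at 6.73, 6.46, 6.96 and 6.94 in untreated wild type and at 9.01, 8.31, 8.28 and 8.89 with HCA. It was detected on 0 of the 8 knockout arrays, which read 4.73 to 5.25. The fitted difference of -2.00 ± 0.24 (adjusted p = 0.000834, limma) therefore sets the wild-type response of Nupr1 against values at background. Cebpb, a bZIP factor that can pair with ATF4, read 8.08, 8.07, 8.01 and 8.24 untreated and 8.95, 8.93, 8.82 and 8.99 with HCA in wild type. Its knockout arrays lay between 7.47 and 7.72 untreated and between 7.42 and 7.74 with HCA, overlapping each other and below all wild-type arrays. The difference for Cebpb was -0.87 ± 0.12 (adjusted p = 0.00308, limma).

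Ddit4, an inhibitor of the growth kinase complex mTORC1, differed by its response alone. Untreated arrays read 7.41, 7.61, 7.09 and 6.91 in wild type and 7.54, 7.47, 6.67 and 6.86 in knockout, so the genotypes overlapped. With HCA the wild-type arrays were at 9.35, 8.64, 8.36 and 8.64 and the knockout arrays at 7.13, 7.33, 7.10 and 6.80, with no overlap. The difference for Ddit4 was -1.54 ± 0.20 (adjusted p = 0.00182, limma), on chip 2 -1.76 and on chip 3 -1.32, and it was not called without a chip term. Vegfa, the angiogenic growth factor, had a difference of -1.14 ± 0.18 (adjusted p = 0.00866), with responses of 1.09 in wild type and -0.05 in knockout. Wild-type HCA replicate 1 was the highest array for both, at 9.35 for Ddit4 and 11.42 for Vegfa where the other treated arrays lay between 10.50 and 10.73, and without it the differences were -1.41 and -0.98. Stc2, the secreted glycoprotein stanniocalcin 2, was detected on 3 of 4 untreated and 4 of 4 treated wild-type arrays and on 2 and 0 of the knockout arrays, with a difference of -1.25 ± 0.20 (adjusted p = 0.00785).

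**Figure D3:**
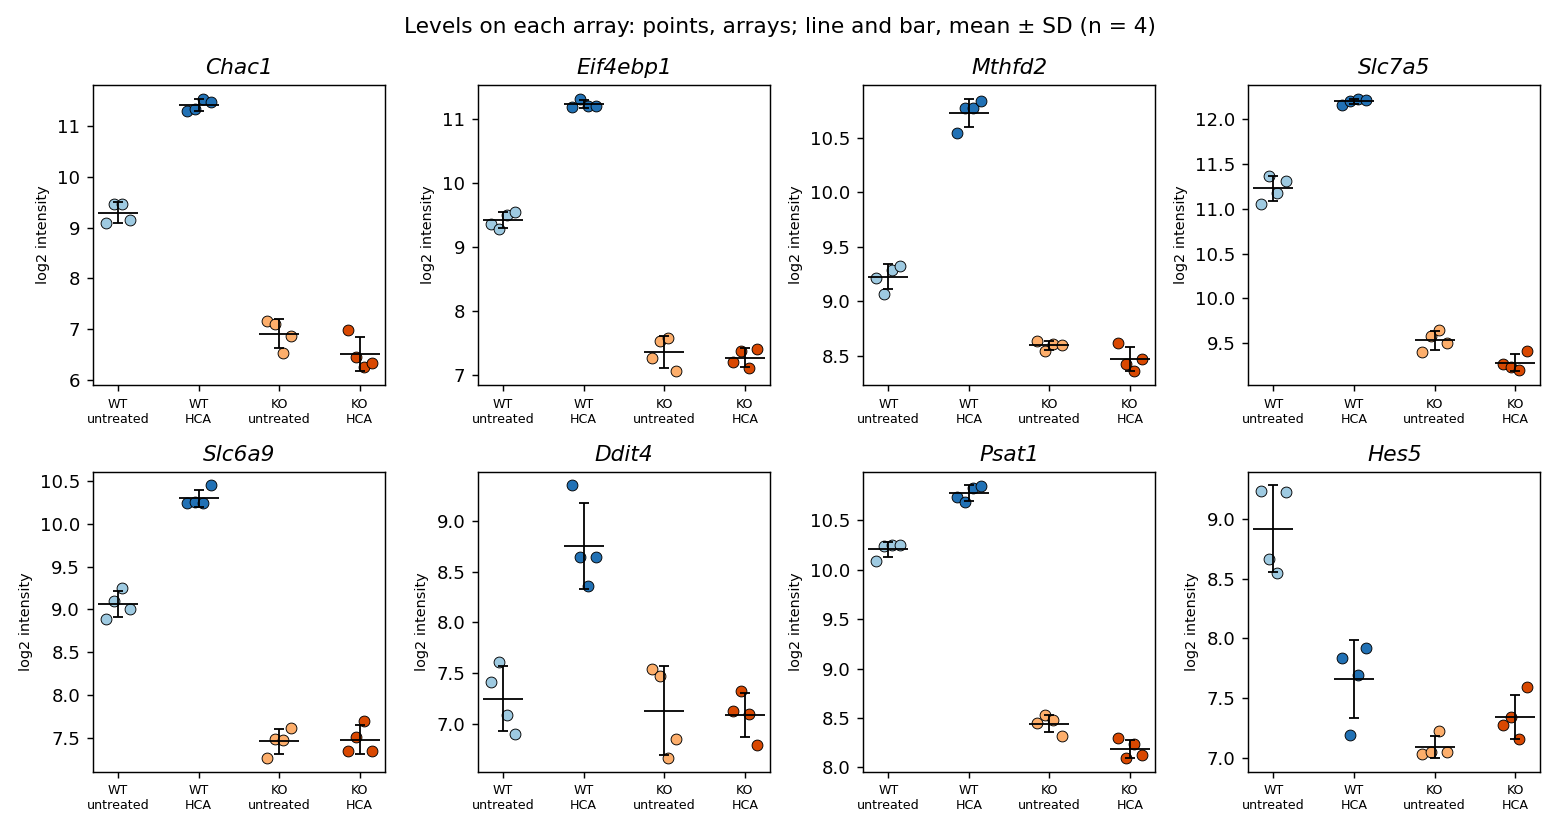
Log2 intensity on each of the 16 arrays (points) for 8 called genes, by group on the horizontal axis, with the group mean (line) and SD (bar, n = 4), and a separate vertical scale for each gene that does not start at 0. In Chac1, Eif4ebp1, Mthfd2, Slc7a5, Slc6a9, Ddit4 and Psat1 the treated wild-type arrays are above every other array, and in Hes5 they are below the untreated wild-type arrays.

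The stress regulators as a list had 16 of 23 members tested. Of these, 10 were called lower in knockout and 0 higher, beside 0.301% of all genes called lower, and their median difference was -0.91 against 0.01 over all genes. The 10 were Atf4, Chac1, Nupr1, Eif4ebp1, Ddit4, Stc2, Vegfa, Gpt2, Cebpb and Ppp1r15a. Atf4 is counted although it is the deleted gene, whose knockout response could not be measured. Ddit3, which encodes the pro-apoptotic factor CHOP, missed the threshold narrowly. It read 7.68, 7.99, 8.18 and 7.91 untreated and 8.29, 8.60, 8.54 and 8.81 with HCA in wild type, and 7.74, 8.05, 8.01 and 8.15 untreated and 7.57, 7.58, 8.17 and 7.91 with HCA in knockout. The difference for Ddit3 was -0.80 ± 0.16 (adjusted p = 0.056, limma). The AP-1 repressor Jdp2 had a difference of -1.08 ± 0.26 (adjusted p = 0.149), the ER degradation factor Herpud1 one of -0.65 ± 0.15 (adjusted p = 0.145), the survival factor Atf5 one of -0.49 ± 0.13 (adjusted p = 0.223) and Ndrg1 one of 0.21 ± 0.14 (adjusted p = 0.805). Trib3 and Atf3 were detected on 0 arrays and were not tested.

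Enzymes that make amino acids or supply one-carbon units to them formed the second group. Of 11 tested members 6 were called lower and 0 higher, beside 0.301% of all genes called lower, with a median difference of -0.77. Mthfd2, a mitochondrial folate enzyme, had the smallest p of all genes. It read 9.22, 9.07, 9.28 and 9.33 in untreated wild type and 10.54, 10.77, 10.77 and 10.84 with HCA, a 2.85-fold response. In knockout it read 8.63, 8.54, 8.60 and 8.60 untreated and 8.62, 8.42, 8.36 and 8.47 with HCA. Every treated wild-type array lay above every other array, and the difference in response of Mthfd2 was -1.64 ± 0.11 (adjusted p = 5.02e-06, limma), -1.58 on chip 2 and -1.69 on chip 3. Of its partners in the mitochondrial folate pathway, Mthfd1l and Shmt2 were called as well and Aldh1l2 was not. Mthfd1l had responses of 0.94 in wild type and -0.17 in knockout, with a difference of -1.12 ± 0.16 (adjusted p = 0.00308). Shmt2, which turns serine into glycine and a one-carbon unit, had responses of 0.82 and 0.05, with a difference of -0.77 ± 0.10 (adjusted p = 0.00218).

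Psat1, an aminotransferase of serine synthesis, read 10.09, 10.23, 10.25 and 10.25 untreated and 10.73, 10.69, 10.83 and 10.85 with HCA in wild type. Knockout arrays read 8.45, 8.53, 8.48 and 8.32 untreated and 8.29, 8.10, 8.23 and 8.12 with HCA. For Psat1 the treated arrays were all higher in wild type and all lower in knockout, and the difference was -0.83 ± 0.10 (adjusted p = 0.0012, limma), with -0.78 on a further probe of the gene. Asns, asparagine synthetase, had responses of 0.75 in wild type and -0.23 in knockout and a difference of -0.98 ± 0.17 (adjusted p = 0.0221), with -0.997 on a further probe. Gpt2, the mitochondrial alanine aminotransferase that also stands in the list of stress regulators, had a difference of -0.95 ± 0.17 (adjusted p = 0.0221). Phgdh, the first enzyme of serine synthesis, was not called, with responses of 0.62 and -0.02 (adjusted p = 0.371), nor was the folate enzyme Aldh1l2, with 0.70 and -0.01 (adjusted p = 0.252).

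Amino acid transporters gave 5 calls lower and 0 higher among 12 tested members, with a median difference of -0.69. Over all genes 0.301% were called lower. The 5 include Slc1a5, which met the detection filter only through the treated wild-type arrays. Slc7a5 and Slc3a2 are the light and heavy chains of one carrier of large neutral amino acids. Slc7a5 read 11.06, 11.37, 11.17 and 11.31 untreated and 12.16, 12.20, 12.23 and 12.21 with HCA in wild type. In knockout it read 9.40, 9.58, 9.65 and 9.50 untreated and 9.27, 9.23, 9.20 and 9.42 with HCA. The wild-type groups did not overlap, the knockout groups did, and the difference for Slc7a5 was -1.22 ± 0.11 (adjusted p = 4.77e-05, limma). Slc3a2 had a difference of -0.83 ± 0.12 (adjusted p = 0.00309), from responses of 0.72 and -0.11.

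Slc6a9, the glycine transporter GLYT1, read 8.89, 9.10, 9.25 and 9.01 untreated and 10.25, 10.26, 10.24 and 10.45 with HCA in wild type, and 7.26 to 7.62 untreated and 7.34 to 7.70 with HCA in knockout. Its difference in response was -1.22 ± 0.13 (adjusted p = 0.000346, limma). The neutral amino acid carrier Slc1a4 had responses of 0.84 and -0.02 and a difference of -0.86 ± 0.12 (adjusted p = 0.00333). The glutamine carrier Slc1a5 was detected on the 4 wild-type arrays with HCA and on 0 of the other 12. It was thus tested only because of the group where it was high, and its call is no separate support. Treated wild type was at least 1.26-fold above untreated for Slc1a5, measured against the dimmest detected probes, and the fitted difference of -1.07 ± 0.17 (adjusted p = 0.00865) rests on values at background in the other groups. Slc7a3, a carrier of cationic amino acids, had responses of 1.12 and 0.13 (adjusted p = 0.208), and Slc38a2, a glutamine carrier, 0.48 and -0.07 (adjusted p = 0.209). Slc7a11, the cystine carrier that HCA competes for, was detected on 0 of 16 arrays and was not tested.

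Among the enzymes that charge tRNAs, the cytosolic and mitochondrial lists had different counts. Of 12 tested cytosolic synthetases 1 was called lower and 5 had an unadjusted p under 0.05, all lower, with a median difference of -0.28. Over all 7967 genes 0.301% were called lower. With an unadjusted p under 0.05, 303 of all genes were lower and 279 higher. The called member was the alanyl-tRNA synthetase Aars, which read 11.76, 11.69, 12.04 and 11.80 untreated and 12.21, 12.46, 12.44 and 12.41 with HCA in wild type, and 11.09 to 11.26 untreated and 11.03 to 11.17 with HCA in knockout. Its difference was -0.61 ± 0.11 (adjusted p = 0.0179, limma). The other 4 with an unadjusted p under 0.05 were Cars with a difference of -1.29 ± 0.31 (adjusted p = 0.146), Nars with -0.65 ± 0.16 (adjusted p = 0.157), Tars with -0.50 ± 0.12 (adjusted p = 0.157) and Gars with -0.32 ± 0.09 (adjusted p = 0.252). A further probe of Tars, detected on 11 arrays, had a difference of -0.05. Of 11 tested mitochondrial synthetases 0 were called, 1 had an unadjusted p under 0.05, Iars2 with a difference of 0.22 ± 0.10 (adjusted p = 0.663), and the median was 0.10. Whether the 2 lists differ was not tested.

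Called genes outside all lists were Cyb5r1, a cytochrome b5 reductase, Eif2s2, the beta subunit of eIF2, and Rem2, a small GTPase that inhibits voltage-gated calcium channels in neurons. Rem2 read 8.75, 8.97, 8.73 and 8.87 untreated and 9.49, 9.29, 9.33 and 9.32 with HCA in wild type, and 9.59, 9.24, 9.23 and 9.38 untreated and 9.41, 9.08, 9.24 and 9.06 with HCA in knockout. Untreated knockout arrays thus lay above untreated wild-type arrays and overlapped the treated ones, unlike most called genes. The difference for Rem2 was -0.69 ± 0.14 (adjusted p = 0.047, limma), and leaving out 1 array lost its call in 14 of 16 cases. Eif2s2 had a difference of -0.54 ± 0.10 (adjusted p = 0.0439), -0.33 on a further probe, and lost its call in 13 of those 16 cases, and Cyb5r1 had one of -0.83 ± 0.15 (adjusted p = 0.0249), lost in 9. The Atf4 call was lost in 11, that of Asns in 7, that of Gpt2 in 7 and that of Aars in 4, always with the same sign.

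Levels before treatment differed among the 24 genes called lower. In 21 of them the untreated knockout mean was below the untreated wild-type mean, as in 3595 of all 7967 genes (45.1%). In 17 all 8 knockout arrays were below all 4 untreated wild-type arrays, as in 795 of all genes (9.98%). In 23 of 24 the treated knockout arrays lay entirely below the treated wild-type arrays, Rem2 being the exception, as in 924 of all genes (11.6%). The treated arrays and the untreated ones entered the contrast by which these genes were called, so nothing further is read from these counts. In 20 of 24 the treated and untreated knockout arrays overlapped, as in 7751 of all genes (97.3%). The other 4 were Atf4, Ppp1r15a, Psat1 and Slc1a5, with the treated knockout arrays below the untreated ones, though Atf4 and Slc1a5 were at background there.

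The promoters of the genes called lower were searched for the core of the composite element that ATF4 binds with C/EBP partners, spelled TGATGNAA, on both strands of the 250 bases before the gene start in RefSeq's mouse GRCm38.p6. Of the 24 genes 21 had a promoter entry and 5 of these (23.8%) held the motif, namely Aars, Asns, Chac1, Nupr1 and Rem2. It was present in 156 of 6516 tested genes with a promoter (2.39%) and in 1056 of all 27025 genes of the promoter table (3.91%). The core of the antioxidant response element, spelled TGACNNNGC, was present in 3 of 21 (14.3%), 905 of 6516 (13.9%) and 3112 of 27025 (11.5%). Hes5 held neither. A match describes the letters in these windows and is no shown binding site. The stretches around the match in 4 of the 5 genes are shown, each 5′ to 3′ on the strand of the gene with the match in capitals, because they share the element while the differences in response of their genes range from -2.53 (Chac1) to -0.69 (Rem2). They lie at chr2:119351003-119351102 on the plus strand (Chac1), chr7:126625527-126625626 on the minus strand (Nupr1), chr6:7693210-7693309 on the minus strand (Asns) and chr14:54476000-54476099 on the plus strand (Rem2).
Chac1: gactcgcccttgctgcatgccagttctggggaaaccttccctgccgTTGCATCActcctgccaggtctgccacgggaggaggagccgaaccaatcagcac
Nupr1: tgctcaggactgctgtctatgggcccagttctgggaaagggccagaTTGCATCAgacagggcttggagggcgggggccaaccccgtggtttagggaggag
Asns: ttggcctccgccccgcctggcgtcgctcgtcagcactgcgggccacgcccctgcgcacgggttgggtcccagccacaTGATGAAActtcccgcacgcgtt
Rem2: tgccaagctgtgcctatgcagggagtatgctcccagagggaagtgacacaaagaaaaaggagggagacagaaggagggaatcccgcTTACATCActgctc
Capitals in Chac1 and Nupr1 spell the same 8 letters, TTGCATCA, the reverse complement of the motif. In Rem2 they begin 14 bases and in Asns 23 bases before the gene start, against 110 bases in Nupr1 and 193 in Chac1.

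Hes5 was the one gene called in the other direction. It is a transcriptional repressor that Notch signalling maintains in neural progenitors. In wild type Hes5 read 9.23, 8.67, 8.55 and 9.23 untreated and 7.83, 7.19, 7.70 and 7.92 with HCA. In knockout it read 7.03, 7.05, 7.22 and 7.04 untreated and 7.27, 7.34, 7.16 and 7.59 with HCA. All treated wild-type arrays lay below the untreated ones. The array at 7.19 lay within the range of the knockout arrays, and the other treated wild-type arrays lay above that range. The 2 knockout groups overlapped. The responses of Hes5 were -1.26 ± 0.17 and 0.25 ± 0.17, and the difference was 1.51 ± 0.25 (adjusted p = 0.00946, limma), 1.70 on chip 2 and 1.32 on chip 3. Normalised and fitted with all 24 arrays it was 0.78 and not called.

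Hes5 belongs to the list of neural progenitor and radial glia genes, of which 9 were tested, with a median difference of 0.17. In this list 1 was called higher and 0 lower, beside 0.0126% of all genes called higher. Eomes, a factor of intermediate progenitors, had a difference of 0.39 ± 0.19 (adjusted p = 0.701) and Notch1 one of 0.32 ± 0.18 (adjusted p = 0.773). The summed intensity of the 9 progenitor genes lay between 6321 and 7221 on untreated and 5179 and 5880 on treated wild-type arrays, and between 4358 and 5369 and between 4001 and 4994 on the knockout arrays. Fewer cells of a type and less RNA per cell cannot be told apart in such bulk samples. Of 19 tested cell division genes 0 were called, 9 had an unadjusted p under 0.05, all with the knockout response higher, and the median was 0.25. Over all genes 279 of 7967 were higher with an unadjusted p under 0.05. The summed intensity of the cell division genes lay between 9824 and 11166 on untreated and 7825 and 8578 on treated wild-type arrays, and at 5505 to 6004 and 5205 to 6014 on untreated and treated knockout arrays. The part of these lists in the Hes5 result was not tested.

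No cell division gene passed the test, which 0.314% of all genes passed, so the count of 0 is not read as a result. Cdc20, an activator of the anaphase-promoting complex, read 8.74, 8.88, 9.06 and 9.17 untreated and 8.01, 8.36, 8.30 and 8.47 with HCA in wild type, and 7.71 to 7.90 untreated and 7.50 to 7.97 with HCA in knockout. The wild-type groups did not overlap and the knockout groups did, and the difference for Cdc20 was 0.58 ± 0.16 (adjusted p = 0.223, limma). The centromere histone Cenpa had one of 0.49 ± 0.12 (adjusted p = 0.145), the mitotic kinase Plk1 0.49 ± 0.13 (adjusted p = 0.223) and the survivin gene Birc5 0.46 ± 0.14 (adjusted p = 0.322). With all 24 arrays in the fit 0 of the 19 genes had an unadjusted p under 0.05, in place of 9. Outside the lists and named after its value was seen, Cdca3, a trigger of entry into mitosis, had a difference of 0.57 ± 0.11 (adjusted p = 0.054). The Notch feedback gene Nrarp, in no list either, had responses of -0.80 in wild type and -0.14 in knockout and a difference of 0.65 ± 0.13 (adjusted p = 0.054).

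**Figure D4:**
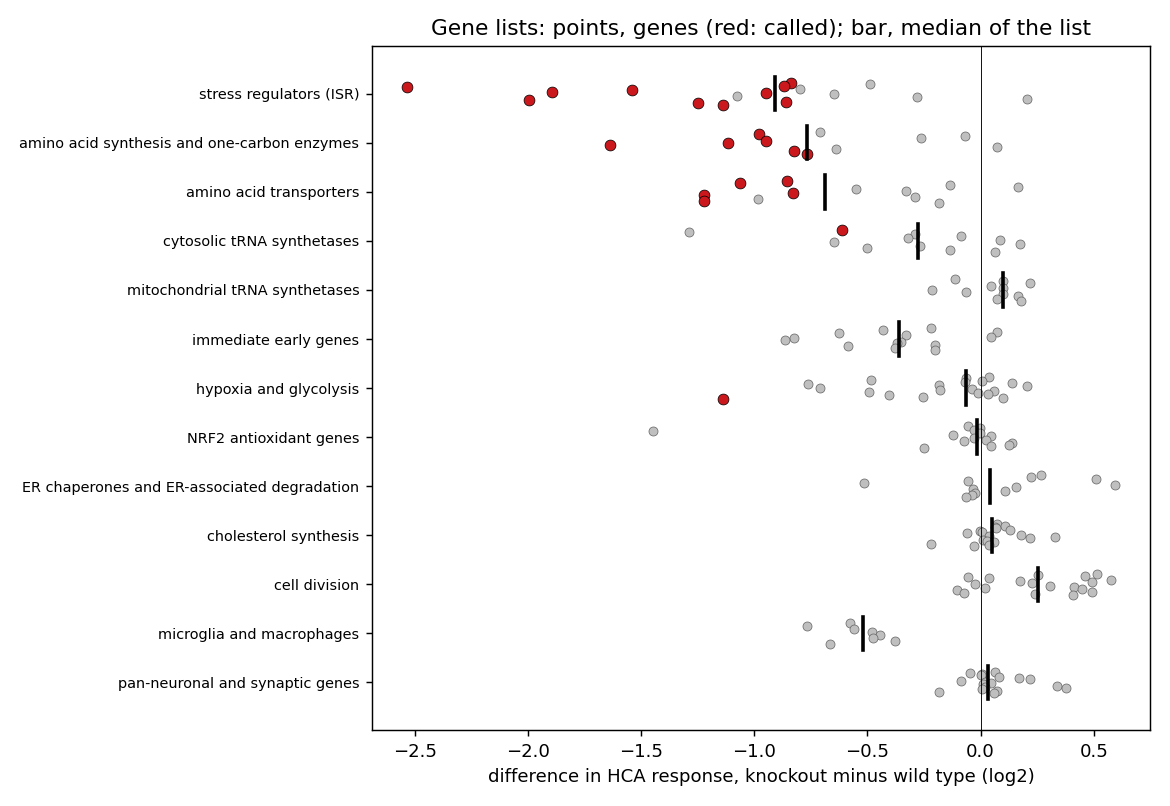
Difference in HCA response, knockout minus wild type in log2 units, for each tested member (points, called genes in red) of 13 of the gene lists, with the list's median as a bar. Stress regulators, amino acid enzymes and amino acid transporters have medians of -0.91, -0.77 and -0.69, while pan-neuronal and cholesterol synthesis genes lie around 0.

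Of 14 tested NRF2 antioxidant genes 0 were called and the median difference was -0.02. Over all genes 0.314% were called, so a count of 0 in a list of this size is not read as a result. With an unadjusted p under 0.05 there was 1, Hmox1, beside 7.31% of all genes. Hmox1 degrades heme and is induced by NRF2 under oxidative stress. It read 7.45, 8.21, 7.50 and 7.58 untreated and 10.64, 9.58, 9.19 and 10.73 with HCA in wild type, and 6.76, 7.09, 6.95 and 7.32 untreated and 7.62, 8.15, 8.01 and 7.95 with HCA in knockout. Treated arrays lay above untreated ones in both genotypes, by 5.10-fold in wild type and 1.87-fold in knockout, and the treated wild-type arrays spread from 9.19 to 10.73. The difference for Hmox1 was -1.45 ± 0.42 (adjusted p = 0.272, limma), with a 95% interval from -2.35 to -0.55. Gclm, a subunit of the enzyme that limits glutathione synthesis, had responses of 0.16 and 0.13 and a difference of -0.03 (95% interval from -0.27 to 0.21, adjusted p = 0.973). Txnrd1, a thioredoxin reductase, had one of -0.25 ± 0.24 (adjusted p = 0.865), and of -0.0849 without wild-type HCA replicate 1. Nqo1, a quinone reductase, was detected on 0 and 2 arrays by its 2 probes and was not tested. Of 14 tested glutathione genes 1 was called, Chac1, and the median was 0.01.

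The remaining stress lists held 1 call. Over all 7967 genes 0.301% were called lower, and 303 were lower with an unadjusted p under 0.05. Of 20 tested genes of hypoxia and glycolysis 1 was called lower, Vegfa, and 4 had an unadjusted p under 0.05, with a median of -0.07. Among these, hexokinase Hk2 had a difference of -0.76 ± 0.17 (adjusted p = 0.0975), the collagen prolyl hydroxylase P4ha1 one of -0.71 ± 0.25 (adjusted p = 0.458) and phosphofructokinase Pfkp one of -0.49 ± 0.22 (adjusted p = 0.648). Of 14 tested immediate early genes 0 were called and 7 had an unadjusted p under 0.05, all lower, with a median of -0.36. The AP-1 subunit Jun read 8.85, 8.64, 8.71 and 9.18 untreated and 9.54, 9.53, 9.39 and 9.92 with HCA in wild type, and 8.86 to 9.13 untreated and 8.82 to 9.18 with HCA in knockout, with a difference of -0.86 ± 0.17 (adjusted p = 0.054, limma). The early response gene Ier3 had responses of 1.05 in wild type and 0.23 in knockout and a difference of -0.82 ± 0.20 (adjusted p = 0.172), and the phosphatase Dusp1 responses of 0.25 and -0.19 and a difference of -0.43 ± 0.13 (adjusted p = 0.329). Fos, a partner of Jun, and Npas4, a factor induced by neuronal activity, had wild-type responses of 0.07 and 0.06 and knockout responses of -0.55 and -0.52 (adjusted p = 0.472 and 0.399). The others of the 7, Fosl2 and Nr4a2, had wild-type responses of -0.04 and -0.10 and knockout responses of -0.36 and -0.48 (adjusted p = 0.637 and 0.522, limma). In Jun, Ier3 and Dusp1 the wild-type response was the larger in size, and in Fos, Npas4, Fosl2 and Nr4a2 the knockout response, with none called.

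ER chaperones and ER degradation genes had 0 of 12 called and a median of 0.04, with Hspa5, the chaperone BiP, at -0.52 ± 0.24 (adjusted p = 0.663), Hyou1 at 0.59 ± 0.24 (adjusted p = 0.581) and Dnajb9 at 0.51 ± 0.22 (adjusted p = 0.629). Of 9 tested p53 targets 0 were called. The cell cycle inhibitor Cdkn1a had responses of 0.45 and -0.10 and a difference of -0.54 ± 0.13 (adjusted p = 0.168), with -0.54 on a further probe, and the growth arrest gene Gadd45a one of -0.50 ± 0.15 (adjusted p = 0.297). Heat shock proteins had 0 of 13 called, with the mitochondrial chaperone Hspa9 at -0.40 ± 0.10 (adjusted p = 0.193). Among 18 cholesterol synthesis genes, 49 cytosolic ribosomal proteins, 26 proteasome subunits and 22 autophagy genes 0 were called and 0 had an unadjusted p under 0.05, with medians of 0.05, -0.01, 0.03 and -0.05. The interferon list had 0 of 5 called. With 0.314% of all genes called, the counts of 0 in these lists are not read as results about them.

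Neuronal genes were not called, and with 0.314% of all genes called this is not read as a result about them. Pan-neuronal and synaptic genes had 0 of 18 called and a median of 0.03, with the synapsin Syn2 at 0.38 ± 0.13 (adjusted p = 0.472), and 0 of 9 genes of excitatory neurons and 0 of 9 of inhibitory neurons were called, with medians of -0.06 and -0.10. Of the other cell types, 0 genes of astrocytes (6 tested), oligodendrocyte lineage (5), microglia and macrophages (8), endothelium and pericytes (4), meninges and fibroblasts (7) and erythroid cells (2) were called. The microglia list had a median of -0.52 and 3 genes with an unadjusted p under 0.05, the complement genes C1qb at -0.77 ± 0.16 (adjusted p = 0.0671) and C1qc at -0.56 ± 0.24 (adjusted p = 0.621) and the lysosomal Laptm5 at -0.48 ± 0.19 (adjusted p = 0.589). Over all 7967 genes 303 were lower with an unadjusted p under 0.05. The microglia count of 3 was 1 without knockout HCA replicate 3 or untreated knockout replicate 7 and 6 without untreated knockout replicate 8. It lay between 2 and 4 without any other single array. Cx3cr1, the fractalkine receptor, had -0.48 ± 0.23 (adjusted p = 0.691). The summed intensity of the 8 microglia genes was 1162 to 1449 on untreated and 1523 to 1925 on treated wild-type arrays, and 879 to 1159 on untreated and 822 to 1008 on treated knockout arrays. Its ranges do not overlap between treatments in wild type. Those of the oligodendrocyte genes do not either, at 2092 to 2700 untreated and 1425 to 1981 treated. Untreated knockout sums also lay below untreated wild-type sums for astrocytes (1696 to 1883 against 2558 to 3013). So they did for oligodendrocyte, endothelial, meningeal and inhibitory neuron genes. The excitatory neuron sum lay above (9702 to 10945 against 7529 to 7934), and pan-neuronal and erythroid sums overlapped. The part of these sums in the calls was not tested.

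The Y-linked gene Eif2s3y differed between arrays of wild type. It was detected on all 8 knockout arrays. On the wild-type arrays it read 8.64, 4.82, 4.72 and 8.19 on untreated replicates 5 to 8 and 9.60, 4.68, 4.92 and 8.36 on HCA replicates 1 to 4, so that both arrays of an array set were high or both low. With the Eif2s3y level as a covariate 26 genes were called, of which 23 were among the 25. In wild type Eif2s3y was detected on equally many treated and untreated arrays, so this covariate could change the difference in response only little. It does not address a response that differs with the Eif2s3y level. The wild-type responses of Hmox1 in the 4 sets were 3.19, 1.37, 1.69 and 3.15, the higher values standing in the sets with Eif2s3y detected, and the knockout responses were 0.85, 1.06, 1.06 and 0.63. This concerns 2 sets against 2 and was not tested.

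**Figure D5:**
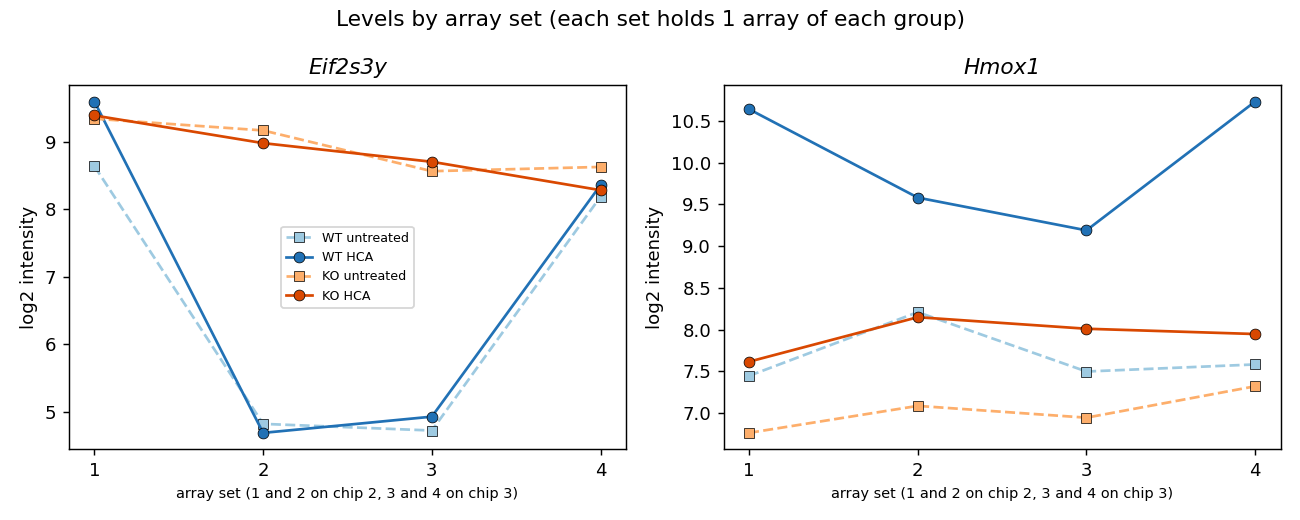
Log2 intensity of Eif2s3y (left) and Hmox1 (right) on the 16 arrays by array set on the horizontal axis (sets 1 and 2 on chip 2, sets 3 and 4 on chip 3), with lines joining arrays of 1 group and vertical scales that do not start at 0. The wild-type arrays of sets 2 and 3 are near 4.8 for Eif2s3y, and their treated arrays read 9.58 and 9.19 for Hmox1 against 10.64 and 10.73 in sets 1 and 4.

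In a separate fit of the same contrast over all 10509 detected probes, 26 were called. Probes without a gene name made up 3 of these calls, among 1043 such probes. One of them was detected on all 4 treated wild-type arrays and on 0 others, reading 8.35, 8.21, 8.07 and 8.41 there against 4.99 to 5.69 on untreated wild-type and 4.53 to 4.78 on knockout arrays, with a difference in response of -2.94 ± 0.19 (adjusted p = 3.22e-06, limma). The 3 other groups were at background, so this difference rests on background values, and treated wild type was at least 5.2-fold above untreated. This probe met the detection filter only through the treated wild-type arrays. The other two had differences of -1.28 ± 0.23 (adjusted p = 0.0275) and 1.02 ± 0.18 (adjusted p = 0.0244), each detected on 9 arrays and on 0 of the 4 treated knockout arrays.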

How the data were processed

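Total RNA of 24 samples was hybridised to Illumina Mouse Ref-8 BeadChips, and the 16 arrays of chips 2 and 3 were analysed, in the groups that the labels give.

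Per the file headers, BeadStudio 1.5.1.3 gave each of 24048 probes an averaged bead intensity (linear, not normalized) and a detection score, taken here as 1 minus a detection p. The authors also deposited log2 values for 23983 probes, which per the submitters' processing notes involved limma, with no version named. Quantile-normalized log2 values computed here from the raw intensity came within 5.3e-14 of them for the 23973 probes that could be paired. Of these, 20915 had 1 gene symbol, 1 had several and 3057 none, and 20901 matched the RefSeq gene table of GRCm38.p6. Entrez numbers in the raw table were the same for 7941 of 8213 probes (96.7%).

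Signals were corrected with normexp, offset 16, and quantile-normalized over the 16 arrays with limma 3.58.1 in R 4.3.3. Mean and SD of negative controls were read from the signals at detection scores of 0.16, 0.5 and 0.84 (SD 13.8 to 22.7), because the SD that limma infers was 240 on wild-type HCA replicate 3. Of the probes, 10509 were detected (p under 0.05) on at least 4 arrays, and each of 7967 genes (50% of 15946 named) was read by its brightest probe. Limma's lmFit and eBayes had terms for group and chip, with 11 residual and 3.46 prior degrees of freedom, and adjusted p was taken over all 7967 genes. For probes without a gene name a separate fit and adjustment took in all 10509 detected probes. The procedure was tested on simulated data.

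Genes named were Atf4, up to 12 called genes in each direction with the same sign on both chips, in every list up to 4 members of smallest p, and 10 stress genes whatever their value (Asns, Atf3, Cdkn1a, Chac1, Ddit3, Gclm, Hmox1, Nqo1, Slc7a11 and Trib3). A further 60 genes that the rule picked from lists, 0 of them called and with differences from -0.61 to 0.5, are covered by the counts of their lists and not described singly. Named after their values were seen were Cebpb, Cyb5r1, Eif2s2, Gpt2, Ppp1r15a and Rem2 among the called genes, and Jdp2, Herpud1, Atf5, Ndrg1, Phgdh, Aldh1l2, Slc7a3, Slc38a2, Gars, Fos, Fosl2, Nr4a2, Cdca3, Nrarp, Aif1l and Emp1. The comparison and the 29 lists (558 members, 367 distinct genes tested, 22 of 25 called genes in a list) were chosen with earlier results of these data known, so the lists' counts are not independent evidence. The alternatives tried are given in the closing section.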

Additional observations from a re-analysis of the deposited data

Results flagged for a closer look

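Single arrays stood away from the other 3 of their group in 5 of the 92 groups of 4 arrays checked, about the 1 in 20 that chance gives. Cyb5r1 read 7.06 on untreated knockout replicate 7 against 7.32 to 7.35 on the others. Hes5 read 7.22 on the same array against 7.03 to 7.05. Eif4ebp1 read 11.32 on wild-type HCA replicate 2 against 11.19 to 11.21, Slc6a9 read 10.45 on wild-type HCA replicate 4 against 10.24 to 10.26, and Psat1 read 10.09 on untreated wild-type replicate 5 against 10.23 to 10.25.

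The 25 genes whose HCA response differed between the genotypes in limma's test of the difference are listed here with the knockout response minus the wild-type response in log2 units. Among stress regulators it was -2.53 for Chac1, -2.00 for Nupr1, -1.89 for Eif4ebp1, -1.54 for Ddit4, -1.25 for Stc2, -1.14 for Vegfa, -0.95 for Gpt2, -0.87 for Cebpb, -0.86 for Ppp1r15a and -0.84 for Atf4. Among the amino acid and folate enzymes it was -1.64 for Mthfd2, -1.12 for Mthfd1l, -0.98 for Asns, -0.83 for Psat1 and -0.77 for Shmt2. Transporters had -1.22 for Slc7a5, -1.22 for Slc6a9, -1.07 for Slc1a5, -0.86 for Slc1a4 and -0.83 for Slc3a2. The others were -0.61 for Aars, -0.83 for Cyb5r1, -0.69 for Rem2 and -0.54 for Eif2s2, and 1.51 for Hes5. For Atf4, the deleted gene, and for Nupr1 and Slc1a5 the knockout values were at background.

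Among probes with no gene name, which the comparison of genes left out, 3 differed between genotypes, by -2.94, -1.28 and 1.02. They were called in a separate fit of the same contrast over all 10509 detected probes, of which 26 were called.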

How the results depend on the processing

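Across 37 alternatives (leaving out each of the 16 arrays, and 21 others, 1 of them, array set within genotype as a block, chosen after the data were seen) the 25 called genes kept their sign. The number called was 38 with normexp without control values and with the deposited log2 matrix (33 lower and 5 higher each), 42 without background correction (36 and 6), 55 with all 24 arrays (51 and 4, sharing 21 of the 25), 39 with a trend and robust variance (34 and 5), 0 on chip 2 alone (0 and 0) and 2 on chip 3 alone (2 and 0), where fewer samples were fitted. Elsewhere the total stayed within 1.5 times, but the number higher was 4 with limma's inferred background spread, with detection p under 0.01 and with detection on all 16 arrays, 3 with cyclic loess and with array sets as a block, 2 with chip as a random block and 6 with array weights. Array weights gave 29 lower, or 82.9% of calls against 96%. Leaving out 1 array gave 18 to 27 calls, 17 to 25 lower and 1 to 3 higher. Median centring gave 19 calls, all among the 25, and no chip term 17. The cause of these shifts was not tested. Replicate numbers did not pair the genotypes on untreated arrays (correlation of deviations -0.135 to 0.244, 2 of 8 arrays closest to their own number). Arrays of the 2 genotypes with 1 number also lay in 1 array set, so number and chip position cannot be told apart. With HCA the correlations ran from -0.024 to 0.495, and 4 of 8 arrays were closest to their own number. With the chip mean removed, each group has 2 arrays per chip, which gives only 1 value per chip. On chips 2 and 3 these values were -0.0981 and -0.236 untreated and 0.243 and 0.121 with HCA. With the number as a replicate block 19 genes were called, 17 of them among the 25. With array set within genotype as a block 23 were called, 19 of them among the 25. Treated and untreated arrays of a set had correlated deviations of 0.0806 to 0.499 in wild type and -0.196 to 0.451 in knockout.

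Chac1 and Mthfd2 were called in 36 of 37 alternatives, Slc1a5 in 31, Aars and Gpt2 in 27, Asns in 25, Cyb5r1 in 22, Atf4 in 18 and Eif2s2 and Rem2 in 13. Short of the threshold, Jun was called in 15, Ddit3 in 13, Cdca3 in 11 and Nrarp in 10. Sign changes concerned uncalled genes: Notch1 was -0.0345 with all 24 arrays, and Gclm was 0.0699 on chip 3 alone and ran from -0.0800 to 0.0207 when 1 array was left out, above 0 without wild-type HCA replicate 2 (0.0207), knockout HCA replicate 2 (0.0025) or untreated wild-type replicate 7 (0.0155). Genes at background in a group have no measurable response there.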

Other observations

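Some further genes had other layouts and were not called. Emp1, an epithelial membrane protein, had responses of 0.14 ± 0.15 in wild type and -0.90 ± 0.15 in knockout, with a difference of -1.05 ± 0.22 (adjusted p = 0.0662, limma), so that its larger response was in knockout. Mgp, a matrix protein that inhibits calcification, had -0.31 ± 0.13 and -1.03 ± 0.13 (adjusted p = 0.209). Aif1l, an actin-binding protein, had -0.50 ± 0.08 and 0.08 ± 0.08 (adjusted p = 0.0605). Olig1, a factor of the oligodendrocyte lineage, had -0.74 ± 0.13 and -0.28 ± 0.13 (adjusted p = 0.563).

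Cars, the cysteinyl-tRNA synthetase, had knockout arrays that split by array set. They read 7.33, 8.15, 8.17 and 7.38 untreated and 7.27, 8.00, 7.96 and 7.21 with HCA in sets 1 to 4, while wild type read 9.03, 9.23, 9.17 and 9.18 and then 10.48, 10.34, 10.11 and 10.25. The difference in response of -1.29 had an SE of 0.31 and an adjusted p of 0.146 with chip as a term, and an SE of 0.12 and an adjusted p of 0.00277 with array set within genotype as a block, an alternative chosen after the data were seen that calls 23 genes and keeps 19 of the 25. With array set as a block its adjusted p was 0.0514, and without background correction 0.00347.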
